A study of Homo sapiens with 15 samples.

Results

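A set of 10 genes for surface ligands through which tumour cells engage immune checkpoints or natural killer (NK) cell receptors was followed in the RNA of MDA-MB-468 cells. They were CD274, PDCD1LG2, CD276, VTCN1, NECTIN2, PVR, NCR3LG1, CD47, NT5E and TNFRSF14, taken by symbol and matched to their Ensembl gene IDs, and they make up 10 of the 61552 genes listed in the counts table. HLA, MIC and ULBP ligands were not included. The choice used no measured value of the libraries, although earlier results of these data were known when it was made.

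Checkpoint ligands are surface proteins whose receptors on T cells, NK cells or macrophages lower the activity of those cells. NK cells weigh such inhibitory signals against activating ligands on the same target, and nectin family members such as PVR serve receptors of both kinds. In breast epithelium and its tumours, B7 family ligands and the adenosine-producing ecto-enzyme NT5E have been studied as ways by which tumour cells limit lymphocytes.

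The MDA-MB-468 line was established from a human triple-negative breast cancer and carries very high epidermal growth factor receptor (EGFR) levels. In the drug experiment, cells were serum starved for 12 h, given 10 ng/mL EGF and left without a drug (labelled EGF) or treated for 12 h with 10 μM cSNX1.3 (labelled cSNX) or 15 μM erlotinib (labelled ERL). The peptide cSNX1.3 interferes with the binding of Sorting Nexin 1 by EGFR and lowers the amount of EGFR in the nucleus, erlotinib inhibits the EGFR tyrosine kinase, and no control peptide was among the sequenced groups. In the line experiment, endogenous EGFR was knocked down with an IPTG-inducible lentiviral shRNA against its untranslated region and GFP-tagged EGFR was introduced, either wildtype (labelled shEGFR-WT, here WT) or with a mutated nuclear localization signal (labelled shEGFR-NLS, here ΔNLS), and these cells also received EGF. The groups were set up to ask how EGFR in the nucleus and its kinase signalling bear on transcription. Each of the 5 groups had 3 replicates. The labels do not say whether the replicates were separate cultures, so the p-values measure the spread between these libraries, which may be technical.

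The 15 libraries held 22915676 to 35900649 counts on genes. Levels are given as CPM, the counts per library divided by its TMM-corrected size, computed over all 15 libraries. EGFR stood at 4749.6 ± 334 CPM in the EGF group, 6130.1 ± 447 CPM with cSNX1.3, 4679.9 ± 255 CPM with erlotinib, 1346 ± 171 CPM in WT and 1722 ± 34.9 CPM in ΔNLS (SD, n = 3 each), and because these counts join endogenous and introduced EGFR they do not check the knockdown or the mutation. All 10 ERK output genes, targets of the kinase cascade below EGFR, fell in erlotinib vs. EGF, 3 of 10 rose in cSNX1.3 vs. EGF, and 3 rose and 3 fell in ΔNLS vs. WT, where 44%, 6.07% and 41.4% of all genes tested were called in either direction. The 7 epithelial markers, EGFR among them, summed to 20718 to 25356 CPM in the EGF libraries, 24593 to 29208 CPM with cSNX1.3, 13761 to 15072 CPM with erlotinib, 19597 to 21915 CPM in WT and 12871 to 15424 CPM in ΔNLS, so this sum moved with the groups, and its part in the results was not tested. The 8 leukocyte markers summed to 17.4 to 23.4 CPM in the EGF libraries, 12.3 to 16.3 CPM with cSNX1.3, 42.8 to 45.9 CPM with erlotinib, 28.8 to 41.8 CPM in WT and 41.4 to 46.3 CPM in ΔNLS, which also moved with the groups and was not tested for its part in them. CD14 made up most of that sum, the defining marker PTPRC reached at most 0.215 CPM, and CD3E and NKG7 had at most 3 counts in every library. NCAM1 reached 3.34 CPM and rose with erlotinib (log2 fold change 1.36) and in ΔNLS (1.43), and ITGAM reached 3.93 CPM and fell with erlotinib (-0.78). The 6 fibroblast and endothelium markers summed to 13.0 to 23.7 CPM. In RNA from whole cultures, fewer cells that express a gene and less RNA per cell cannot be told apart.

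The promoters of 3 of the genes are shown because these genes changed in different directions or stand for different ligand classes. RefSeq entries of GRCh38.p14 were found for 9 of the 10 genes. The bases printed are those before the first annotated exon, written along the gene's strand, and capitals mark matches to motifs that were chosen after the values had been seen. CD274 (chr9:5450292-5450502, plus strand) has capitals at a pair of overlapping interferon regulatory factor (IRF) matches, GAAANNGAA on the minus strand, and at a STAT match, TTCNNNGAA. PVR (chr19:44643660-44643797, plus strand) has capitals at a TEAD match, GGAATG. VTCN1 (chr1:117210961-117211177, minus strand) held no match to any motif searched.
CD274: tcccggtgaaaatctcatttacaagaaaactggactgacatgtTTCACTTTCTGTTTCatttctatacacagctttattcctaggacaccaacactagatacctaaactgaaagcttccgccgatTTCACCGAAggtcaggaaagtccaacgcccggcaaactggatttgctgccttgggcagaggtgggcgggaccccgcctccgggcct
PVR: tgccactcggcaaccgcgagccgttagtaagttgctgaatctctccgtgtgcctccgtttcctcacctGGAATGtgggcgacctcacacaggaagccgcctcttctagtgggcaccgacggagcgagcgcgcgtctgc
VTCN1: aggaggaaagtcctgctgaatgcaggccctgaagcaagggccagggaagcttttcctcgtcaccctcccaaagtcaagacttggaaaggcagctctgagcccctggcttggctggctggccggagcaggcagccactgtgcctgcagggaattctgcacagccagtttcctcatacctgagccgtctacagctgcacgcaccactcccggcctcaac
Within the 250 bases upstream of the start, on both strands, the IRF motif lay in 6.88%, the STAT motif in 6.57% and the TEAD motif in 11.9% of 35116 RefSeq promoters. Among the 9 genes with an entry, 1 held the IRF motif, 1 the STAT motif and 2 the TEAD motif, the second being TNFRSF14, whose window lies in annotated exons. The AP-1 motif TGANTCA (6.57% of all promoters) and the ETS motif CCGGAAG (8.52%) matched 0 of the 9. A match describes the letters only. The upstream windows of these genes ranged from 54.8% GC for CD274 to 80.8% for CD276, where the median of all promoters was 58%.

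The ligand genes changed in both experiments, but not as a block. Differences were tested with edgeR's quasi-likelihood test, and a gene was called where the Benjamini-Hochberg adjusted p, taken over all genes tested, was under 0.05. PDCD1LG2 did not pass the filter on low counts, so 9 of the 10 genes were tested. In cSNX1.3 vs. EGF, 3 of the 9 were called, where 6.07% of all 15738 genes tested were. NT5E and PVR rose (3.38% of all genes did) and VTCN1 fell (2.69%). In erlotinib vs. EGF, 8 of the 9 were called, where 44% of all genes were. VTCN1 and TNFRSF14 rose (22.8%) and NCR3LG1, CD274, PVR, NT5E, CD276 and CD47 fell (21.2%). In ΔNLS vs. WT, 5 of the 9 were called, where 41.4% of 15805 genes were. PVR rose (20.4%) and NT5E, TNFRSF14, VTCN1 and CD47 fell (21%), a share of genes called not far from that of all genes. NECTIN2 was called in none of these 3 comparisons. The median log2 fold change of the 9 genes was 0.20 in cSNX1.3 vs. EGF, -0.40 in erlotinib vs. EGF and -0.24 in ΔNLS vs. WT, where the median over all genes tested was 0.00, 0.01 and 0.01. Both drug comparisons use the same 3 EGF libraries. Their values for a gene are given side by side, and the drugs were also tested directly against each other.

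**Figure D1:**
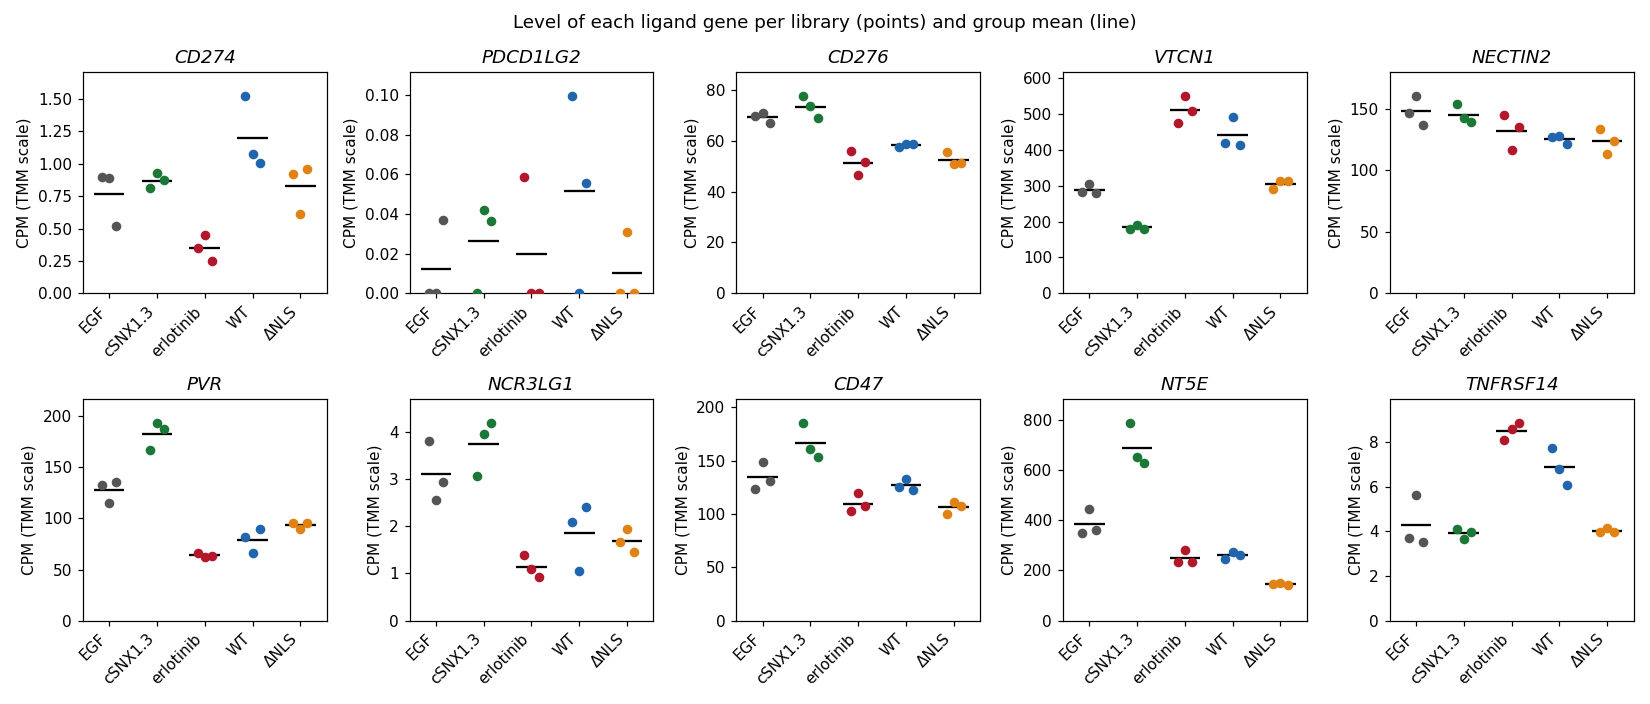
CPM on the TMM scale (y axis, from 0, a separate scale for each gene) of the 10 ligand genes in the 3 libraries of each of the 5 groups (x axis). Points are libraries and lines are group means. PVR and NT5E are highest with cSNX1.3, VTCN1 and TNFRSF14 are highest with erlotinib, and PDCD1LG2 stays under 0.1 CPM.

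Levels of different genes were compared as CPM per kb of exon, with the merged length of all annotated exons of a gene. The transcripts expressed can be shorter than that, so the order of genes depends in part on the annotation. With EGF, VTCN1 (95.2 ± 4.49 CPM per kb) and NT5E (85.1 ± 11.7) were the most abundant of the 10 and overlapped each other. NECTIN2 followed at 39.6 ± 3.26 and CD47 at 16.3 ± 1.59. CD276 (12.6 ± 0.382) and PVR (12.3 ± 1.08) overlapped. TNFRSF14 (0.689 ± 0.189) and NCR3LG1 (0.487 ± 0.101) overlapped well below them, CD274 stood at 0.187 ± 0.0527, and PDCD1LG2 was at the floor (SD, n = 3 each). The same 6 genes were the most abundant in every group, but their order differed. With cSNX1.3, NT5E (152 ± 19.1 CPM per kb) lay above VTCN1 (60.7 ± 2.20) without overlap. With erlotinib the order was the opposite, VTCN1 at 169 ± 12.7 and NT5E at 55.0 ± 6.41. In ΔNLS, NT5E (32.4 ± 1.11) had come down to the level of NECTIN2 (33.1 ± 2.80), and these overlapped.

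**Figure D2:**
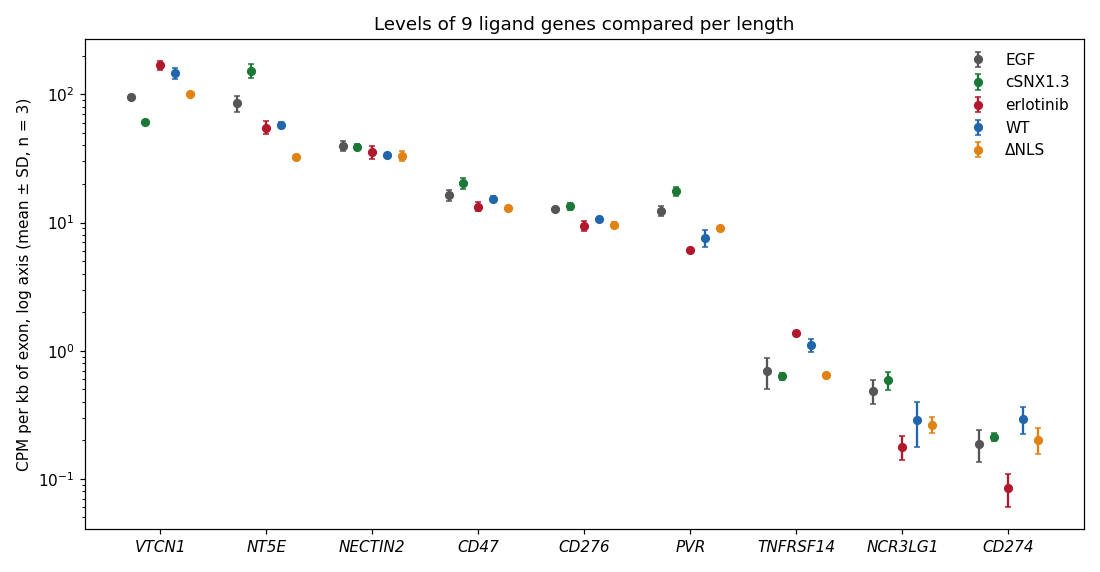
CPM per kb of exon (log axis) of the 9 ligand genes above the floor, ordered by their level with EGF. Points are means and bars are SD of the 3 libraries of a group. VTCN1, NT5E, NECTIN2, CD47, CD276 and PVR lie above 6 CPM per kb in every group and TNFRSF14, NCR3LG1 and CD274 lie below 1.4.

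CD274 encodes PD-L1, the ligand through which tumour cells engage the inhibitory receptor PD-1 on T and NK cells. It lies at chr9:5450503-5470566 on the plus strand (GRCh38). The EGF libraries had 0.901, 0.889 and 0.520 CPM, the cSNX1.3 libraries 0.812, 0.927 and 0.874 CPM, and the erlotinib libraries 0.353, 0.449 and 0.246 CPM. The WT libraries had 1.53, 1.08 and 1.003 CPM and the ΔNLS libraries 0.919, 0.614 and 0.960 CPM. These levels rest on 7 to 46 counts per library. All 3 erlotinib libraries lay below all EGF libraries, the cSNX1.3 and EGF libraries overlapped, and the ΔNLS libraries lay below the WT libraries. CD274 fell in erlotinib vs. EGF with a log2 fold change of -1.11 (SE 0.37, edgeR's Benjamini-Hochberg adjusted p = 0.0240). That call was lost without EGF replicate 1 (-0.98, adjusted p = 0.0925), EGF replicate 2 (-1.02, 0.0735), erlotinib replicate 1 (-1.13, 0.0561) or erlotinib replicate 3 (-0.92, 0.0988), and CD274 was not tested where 10 counts were required in every library. In cSNX1.3 vs. EGF the log2 fold change was 0.20 (SE 0.34, edgeR's adjusted p = 0.813). In ΔNLS vs. WT it was -0.52 (SE 0.28, edgeR's adjusted p = 0.150), which does not pass the threshold. The nearest libraries of these groups had 1.003 CPM (WT) and 0.960 CPM (ΔNLS). The share of all genes whose groups did not overlap was not counted, so a lack of overlap, here and for the genes below, describes the libraries only.

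PDCD1LG2 encodes PD-L2, the other ligand of PD-1, and lies beside CD274 at chr9:5510531-5571282. It had 0 to 3 counts in every library, at most 0.0996 CPM. All 5 groups were at or under the floor of 3 counts per library, so no fold was computed and a difference was not detectable at this depth.

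CD276 and VTCN1 encode the B7 family members B7-H3 and B7-H4, which restrain T cells through receptors that are not settled. CD276 (chr15:73683966-73714514, plus strand) had 69.9, 71.0 and 67.0 CPM with EGF, 77.9, 73.6 and 68.9 CPM with cSNX1.3, and 56.0, 46.7 and 51.7 CPM with erlotinib. It had 57.4, 58.9 and 58.7 CPM in WT and 55.6, 50.8 and 51.5 CPM in ΔNLS. The erlotinib libraries lay below the EGF libraries, those of cSNX1.3 overlapped them, and ΔNLS lay below WT. CD276 fell in erlotinib vs. EGF with a log2 fold change of -0.40 (SE 0.09, edgeR's Benjamini-Hochberg adjusted p = 0.00183). The log2 fold change was 0.10 (SE 0.09, edgeR's adjusted p = 0.620) in cSNX1.3 vs. EGF and -0.14 (SE 0.07, edgeR's adjusted p = 0.128) in ΔNLS vs. WT.

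VTCN1 (chr1:117143587-117210960, minus strand) went against CD276 under erlotinib. The EGF libraries had 283, 304 and 278 CPM, the cSNX1.3 libraries 180.4, 191 and 179 CPM, and the erlotinib libraries 475, 551 and 508 CPM. The WT libraries had 418, 490.4 and 415 CPM and the ΔNLS libraries 291, 312 and 312 CPM. The 3 drug groups did not overlap, with cSNX1.3 lowest and erlotinib highest, and ΔNLS lay below WT. VTCN1 fell in cSNX1.3 vs. EGF with a log2 fold change of -0.64 (SE 0.09, edgeR's Benjamini-Hochberg adjusted p = 0.000279) and rose 1.80-fold in erlotinib vs. EGF, by 0.85 on the log2 scale (SE 0.09, edgeR's adjusted p = 1.40e-06). In ΔNLS vs. WT it fell by 0.52 on the log2 scale (SE 0.08, edgeR's adjusted p = 6.59e-05). Over the 5 groups its mean ranged from 184 ± 6.66 CPM with cSNX1.3 to 511 ± 38.4 CPM with erlotinib, with EGF and ΔNLS overlapping between them and WT overlapping erlotinib.

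PVR (CD155) and NECTIN2 (CD112) are nectin family ligands that bind the activating receptor DNAM-1 and the inhibitory receptor TIGIT on NK and T cells. PVR lies at chr19:44643798-44666162 on the plus strand, and 20.6% of its exonic bases overlap other annotated genes, CEACAM19 among them, so some of its reads could have been counted otherwise. It had 133, 115 and 136 CPM with EGF, 168, 194 and 188 CPM with cSNX1.3, and 65.8, 62.7 and 63.3 CPM with erlotinib. It had 81.5, 65.9 and 89.4 CPM in WT and 95.8, 89.7 and 95.7 CPM in ΔNLS. In the drug experiment the 3 groups did not overlap, with cSNX1.3 highest and erlotinib lowest, and every ΔNLS library lay above every WT library. PVR rose 1.44-fold in cSNX1.3 vs. EGF, by 0.52 on the log2 scale (SE 0.09, edgeR's Benjamini-Hochberg adjusted p = 0.00232). It fell in erlotinib vs. EGF with a log2 fold change of -0.98 (SE 0.09, edgeR's adjusted p = 7.25e-07). In ΔNLS vs. WT it rose by 0.26 on the log2 scale (SE 0.09, edgeR's adjusted p = 0.0292). The rise in ΔNLS was lost without ΔNLS replicate 1 (0.25, adjusted p = 0.0905), replicate 2 (0.29, 0.0523) or replicate 3 (0.25, 0.104), or without WT replicate 2 (0.15, 0.0694), the lowest WT library. Over the 5 groups the mean ran from cSNX1.3 (183 ± 13.8 CPM) through EGF, ΔNLS and WT to erlotinib (63.9 ± 1.68 CPM), and neighbours in that order did not overlap.

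NECTIN2 lies at chr19:44846175-44889223 on the plus strand, and 3.42% of its exonic bases overlap a lncRNA gene on the other strand. The levels were 147, 161 and 137 CPM with EGF, 154, 143 and 139 CPM with cSNX1.3, and 145, 117 and 136 CPM with erlotinib. WT had 127, 128 and 121 CPM and ΔNLS had 134, 113 and 124 CPM. In each of the 3 comparisons the groups overlapped. The log2 fold change was -0.02 (SE 0.10, edgeR's Benjamini-Hochberg adjusted p = 0.947) in cSNX1.3 vs. EGF, -0.14 (SE 0.10, 0.265) in erlotinib vs. EGF and -0.01 (SE 0.07, 0.924) in ΔNLS vs. WT.

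NCR3LG1 encodes B7-H6, a tumour ligand of the activating NK receptor NKp30. The gene lies at chr11:17351800-17377341 on the plus strand. It had 3.81, 2.55 and 2.93 CPM with EGF, 3.07, 3.96 and 4.19 CPM with cSNX1.3, and 1.38, 1.10 and 0.912 CPM with erlotinib. WT had 2.09, 1.05 and 2.40 CPM and ΔNLS had 1.67, 1.93 and 1.46 CPM. The erlotinib libraries lay below all EGF and cSNX1.3 libraries, and the other 2 comparisons overlapped. NCR3LG1 fell 2.66-fold in erlotinib vs. EGF, with a log2 fold change of -1.41 (SE 0.24, edgeR's adjusted p = 0.000181), and no other of the 9 genes had a larger absolute change in the 3 comparisons. The log2 fold change was 0.29 (SE 0.21, edgeR's adjusted p = 0.512) in cSNX1.3 vs. EGF and -0.12 (SE 0.26, edgeR's adjusted p = 0.742) in ΔNLS vs. WT.

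CD47 binds SIRPA on macrophages and thereby holds back phagocytosis. It lies at chr3:108043091-108091862 on the minus strand. Its levels were 123, 149 and 131 CPM with EGF, 185, 161 and 153 CPM with cSNX1.3, and 103, 119 and 107 CPM with erlotinib. WT had 125, 132 and 122 CPM and ΔNLS had 100.4, 111 and 108 CPM. None of the 3 comparisons had groups that overlapped, but the differences were small. In cSNX1.3 vs. EGF the log2 fold change was 0.32 (SE 0.10, edgeR's Benjamini-Hochberg adjusted p = 0.0651). That value passed the threshold with DESeq2 (0.33, adjusted p = 0.0387), in a fit of all 15 libraries (0.32, 0.0275) and without EGF replicate 2 (0.39, 0.0377), the highest EGF library. CD47 fell in erlotinib vs. EGF with a log2 fold change of -0.27 (SE 0.10, edgeR's adjusted p = 0.0382), a call lost without EGF replicate 2 (-0.21, 0.120), EGF replicate 3 (-0.28, 0.0689), erlotinib replicate 1 (-0.22, 0.118) or erlotinib replicate 3 (-0.25, 0.106), and with at least 10 counts in every library (-0.24, 0.0507). In ΔNLS vs. WT it fell by 0.24 on the log2 scale (SE 0.07, edgeR's adjusted p = 0.0104). The mean ran from 166 ± 16.9 CPM with cSNX1.3 through EGF and WT, which overlapped, to erlotinib (109.7 ± 8.53 CPM) and ΔNLS (106 ± 5.39 CPM), which also did.

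NT5E encodes CD73, the ecto-enzyme that turns extracellular AMP into adenosine, which dampens T and NK cells. The gene lies at chr6:85449584-85495791 on the plus strand. It had 350.2, 446 and 360.1 CPM with EGF, 789, 651 and 630.4 CPM with cSNX1.3, and 233, 283 and 233 CPM with erlotinib. WT had 245, 274 and 262 CPM and ΔNLS had 148, 152 and 142 CPM. No 2 drug groups overlapped, with cSNX1.3 highest and erlotinib lowest, and ΔNLS lay below WT. NT5E rose 1.81-fold in cSNX1.3 vs. EGF, by 0.86 on the log2 scale (SE 0.12, edgeR's Benjamini-Hochberg adjusted p = 0.000304). It fell in erlotinib vs. EGF with a log2 fold change of -0.60 (SE 0.12, edgeR's adjusted p = 0.000734) and in ΔNLS vs. WT with one of -0.81 (SE 0.07, edgeR's adjusted p = 1.28e-07). In cSNX1.3 vs. EGF it had the largest absolute change of the 9 genes, and in ΔNLS vs. WT likewise, with the opposite sign. Over the 5 groups the mean ran from 690.4 ± 86.4 CPM with cSNX1.3 through EGF, WT and erlotinib to 147 ± 5.01 CPM in ΔNLS, and of these neighbours only WT and erlotinib overlapped.

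TNFRSF14 encodes HVEM, a TNF receptor family member that engages BTLA and CD160 on lymphocytes. It lies at chr1:2555639-2565382 on the plus strand, and 13.3% of its exonic bases overlap the antisense gene TNFRSF14-AS1, from which reads counted without strand cannot be told apart. It had 3.69, 5.64 and 3.53 CPM with EGF, 4.11, 3.67 and 3.97 CPM with cSNX1.3, and 8.11, 8.60 and 8.88 CPM with erlotinib. WT had 7.77, 6.79 and 6.10 CPM and ΔNLS had 3.99, 4.14 and 3.98 CPM. The erlotinib libraries lay above all other drug libraries, the cSNX1.3 and EGF libraries overlapped, and ΔNLS lay below WT. TNFRSF14 rose 2.03-fold in erlotinib vs. EGF, by 1.02 on the log2 scale (SE 0.17, edgeR's Benjamini-Hochberg adjusted p = 0.000138), and fell by 0.76 on the log2 scale in ΔNLS vs. WT (SE 0.13, edgeR's adjusted p = 0.000264). In cSNX1.3 vs. EGF the log2 fold change was -0.12 (SE 0.18, edgeR's adjusted p = 0.786). Over the 5 groups erlotinib (8.53 ± 0.389 CPM) was highest and WT (6.89 ± 0.838 CPM) next, without overlap, and EGF, ΔNLS and cSNX1.3 overlapped below them.

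**Figure D3:**
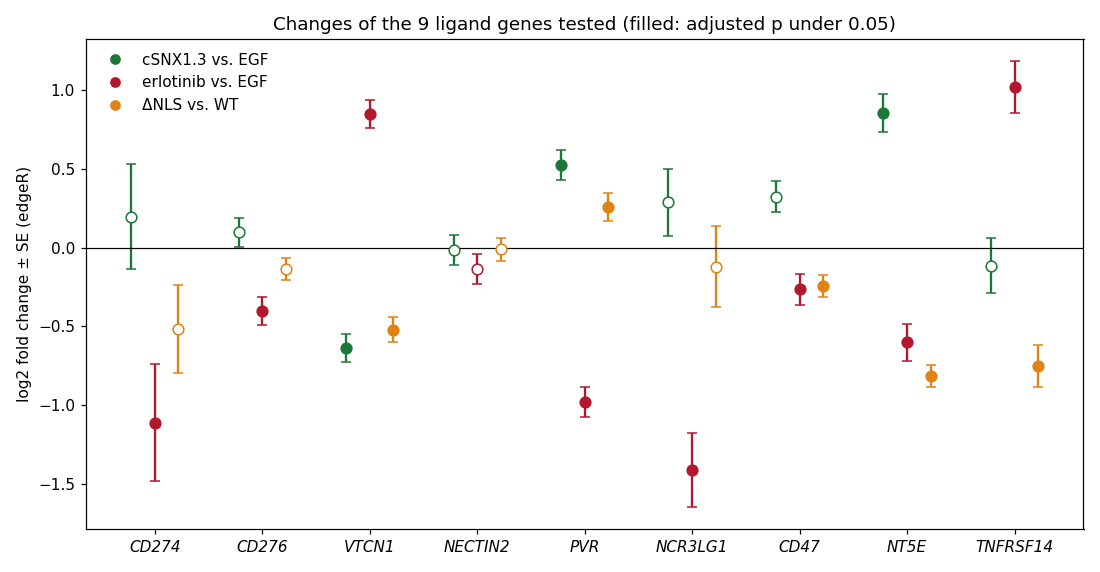
Log2 fold change (y axis) of the 9 ligand genes tested (x axis) in ΔNLS vs. WT and in each drug vs. EGF. Points are edgeR estimates, bars are standard errors, and filled points have an adjusted p under 0.05. VTCN1, PVR and NT5E are filled in all 3 comparisons, and the cSNX1.3 and erlotinib points of each lie on opposite sides of 0.

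VTCN1, PVR and NT5E were the genes called in all 3 comparisons. The share of all genes called in all 3 was not counted, so this overlap cannot be set against the background. The direct test of cSNX1.3 vs. erlotinib called 8 of the 9 genes, where 56.1% of all genes tested were called. The levels with cSNX1.3 were higher for NCR3LG1 (log2 fold change 1.70, SE 0.23), PVR (1.505, SE 0.10), NT5E (1.46, SE 0.12), CD274 (1.31, SE 0.37), CD47 (0.59, SE 0.10) and CD276 (0.50, SE 0.09). They were lower for VTCN1 (-1.49, SE 0.09) and TNFRSF14 (-1.13, SE 0.17). For NECTIN2 the log2 fold change between the drugs was 0.12 (SE 0.10, edgeR's Benjamini-Hochberg adjusted p = 0.304).

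Whether ΔNLS vs. WT differed from a drug's effect was tested as an interaction over all 15 libraries, although the lines and the drug experiment also differ in the EGFR they carry. ΔNLS and WT are separate lines, so the mutation and other differences between the lines cannot be told apart. EGFR counts were themselves higher in ΔNLS than in WT (log2 fold change 0.37, SE 0.09, edgeR's adjusted p = 0.00367). The effects of ΔNLS and of cSNX1.3 differed for 3 of the 9 genes, where 23.1% of 16524 genes tested differed. NT5E had the largest such difference at -1.67 on the log2 scale (SE 0.15, edgeR's Benjamini-Hochberg adjusted p = 4.33e-08), since it rose with cSNX1.3 and fell in ΔNLS. CD47 differed by -0.56 (SE 0.13, edgeR's adjusted p = 0.00234) and TNFRSF14 by -0.64 (SE 0.22, edgeR's adjusted p = 0.0446). The difference of TNFRSF14 was not past the threshold in 10 of 12 fits that left out 1 library, all but those without EGF replicate 2 and WT replicate 3, with values from -0.51 without EGF replicate 3 (adjusted p = 0.135) to -0.69 without cSNX1.3 replicate 2 (0.0511) among the 10. With no filter on low counts it was -0.64 (0.0563). VTCN1 fell in both and its effects differed by 0.12 (SE 0.12, edgeR's adjusted p = 0.528), and PVR rose in both and its effects differed by -0.26 (SE 0.13, edgeR's adjusted p = 0.175). The last value passed the threshold without WT replicate 2 (-0.38, 0.0310).

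The ΔNLS effect and the erlotinib effect differed for 4 of the 9 genes, where 44.7% of all genes tested differed, so the share of these genes was that of the background. TNFRSF14 (-1.76, SE 0.22, edgeR's Benjamini-Hochberg adjusted p = 1.27e-06) and VTCN1 (-1.36, SE 0.12, 1.18e-08) rose with erlotinib and fell in ΔNLS. PVR (1.25, SE 0.14, 2.75e-07) fell with erlotinib and rose in ΔNLS. NCR3LG1 (1.299, SE 0.37, 0.00697) fell with erlotinib and was not called in ΔNLS. NT5E and CD47 fell in both comparisons, and their effects differed by -0.20 (SE 0.15, edgeR's adjusted p = 0.295) and 0.04 (SE 0.13, edgeR's adjusted p = 0.843).

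Related genes were taken as lists and are described by counts, with no test of a list. Beside these counts, 3.38% of all genes tested rose and 2.69% fell with cSNX1.3. With erlotinib 22.8% rose and 21.2% fell, and in ΔNLS 20.4% rose and 21% fell. Of 13 other B7 and butyrophilin-like ligands, 7 were tested in each comparison. With cSNX1.3, 0 rose and 2 fell, with erlotinib 4 rose and 2 fell, and in ΔNLS 2 rose and 4 fell. The butyrophilins BTN3A2 and BTN3A3, of a family that γδ T cells recognise, went the way of VTCN1. Their log2 fold changes were -0.34 and -0.74 with cSNX1.3, 1.10 and 1.51 with erlotinib, and -0.28 and -0.52 in ΔNLS. BTN3A1 rose with erlotinib (0.86), fell in ΔNLS (-0.72) and was not called with cSNX1.3 (-0.25). BTN2A1 went the other way, falling with erlotinib (-0.26) and rising in ΔNLS (0.71), and was not called with cSNX1.3 (0.16). BTN2A2 rose in ΔNLS (0.28) and was not called with either drug. VSIR rose with erlotinib (0.47) and had the largest absolute change of this list in ΔNLS (-1.05). Of 12 other inhibitory ligands and enzymes, 2 rose and 3 fell of the 9 tested with cSNX1.3, 6 rose and 2 fell of 9 with erlotinib, and 3 rose and 7 fell of 10 in ΔNLS. IDO1, the enzyme that starts tryptophan breakdown, fell from 26.2 ± 1.17 CPM in WT to 1.08 ± 0.151 CPM in ΔNLS, a log2 fold change of -4.60 (SE 0.13, edgeR's Benjamini-Hochberg adjusted p = 1.06e-12), whereas it had at most 5 counts in each of the 9 drug libraries. CEACAM1, a ligand that inhibits NK cells by binding itself, moved with PVR and NT5E under the drugs, with log2 fold changes of 0.95 with cSNX1.3 and -1.37 with erlotinib, and in ΔNLS it fell (-1.02), as NT5E did and PVR did not.

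Beside the nectins PVR and NECTIN2, 7 other nectin and cadherin ligands were listed. None of the 5 tested was called with cSNX1.3, 2 rose with erlotinib, and 2 of 4 fell in ΔNLS. Of all genes tested, 6.07%, 44% and 41.4% were called in these comparisons, beside 40% of this list with erlotinib. Beside NCR3LG1, 12 other ligands of activating or adhesion receptors of NK cells were listed, with 8 tested. With cSNX1.3, 1 rose, with erlotinib 1 rose and 4 fell, and in ΔNLS 2 rose and 4 fell. The intermediate filament gene VIM rose with cSNX1.3 (log2 fold change 0.68), fell with erlotinib (-1.68) and rose in ΔNLS (1.29), the directions of PVR. ICAM1, the adhesion ligand of LFA-1, fell with erlotinib (-1.296) and rose in ΔNLS (0.31). Beside TNFRSF14, 11 other TNF superfamily genes were listed. Of the 5 tested with the drugs, 0 were called with cSNX1.3, and 1 rose and 4 fell with erlotinib, among them TNFRSF21 (-0.94). In ΔNLS 1 of 6 rose and 1, again TNFRSF21 (-0.96), fell.

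NT5E works in the adenosine pathway, of which 12 other genes were listed. With cSNX1.3, 1 of 10 tested rose, with erlotinib 4 of 10 fell, and in ΔNLS 4 of 9 rose and 1 fell. Of all genes tested, 6.07%, 44% and 41.4% were called there, so the share of 40% with erlotinib was close to the background. The nucleoside transporter SLC29A1 went with NT5E under the drugs, with log2 fold changes of 0.69 with cSNX1.3 and -1.51 with erlotinib, and against it in ΔNLS (0.96). The adenosine receptors ADORA1 (-0.63) and ADORA2B (-0.60) fell with erlotinib, and ADORA1 rose in ΔNLS (0.48). Of 10 regulators of the CD274 and CD47 proteins, 1 rose with cSNX1.3, 1 rose and 3 fell with erlotinib, and 2 rose and 4 fell in ΔNLS. The share called with erlotinib was again 40%. QPCTL, which modifies CD47 for its binding to SIRPA, fell with erlotinib (-0.77) as CD47 did and rose in ΔNLS (0.49), where CD47 fell.

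Of 20 transcription factors and kinases known upstream of CD274, 19 were tested. With cSNX1.3, 1 rose and 2 fell, with erlotinib 4 rose and 7 fell, and in ΔNLS 3 rose and 6 fell. Among all genes tested, 6.07%, 44% and 41.4% were called in these comparisons. FOSL1, an AP-1 subunit, rose with cSNX1.3 (log2 fold change 1.13), fell with erlotinib (-4.41) and rose in ΔNLS (0.88). FOS, another AP-1 subunit, fell with cSNX1.3 (-1.20), with erlotinib (-3.18) and in ΔNLS (-0.60). JUN, which also forms AP-1, fell with erlotinib (-1.13), rose in ΔNLS (0.24) and was not called with cSNX1.3 (0.16). FOSL1, FOS and JUN thus all fell with erlotinib, and FOS went against FOSL1 with cSNX1.3 and in ΔNLS. IRF1, which carries interferon signals to CD274, rose with erlotinib (0.67) and fell in ΔNLS (-0.67). CD274 had -1.11 with erlotinib, a call lost in 4 of 6 fits lacking 1 library, and -0.52 in ΔNLS, not called. The part of these factors in the level of CD274 was not tested. Of 10 neighbours of CD274 on chromosome 9, 7 were tested and 0 were called with cSNX1.3, 2 rose and 1 fell with erlotinib, and 5 fell in ΔNLS. The share of neighbours called with erlotinib, 42.9%, was close to the 44% of all genes. JAK2, a kinase of interferon signalling, rose with erlotinib (0.36) and fell in ΔNLS (-0.43). Of 15 immune cell receptors for these ligands, 9 had at most 3 counts in every library and 2 were tested, SIRPA and SIRPG, which fell with erlotinib (-0.35 and -1.13) and were not called in the other comparisons.

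**Figure D4:**
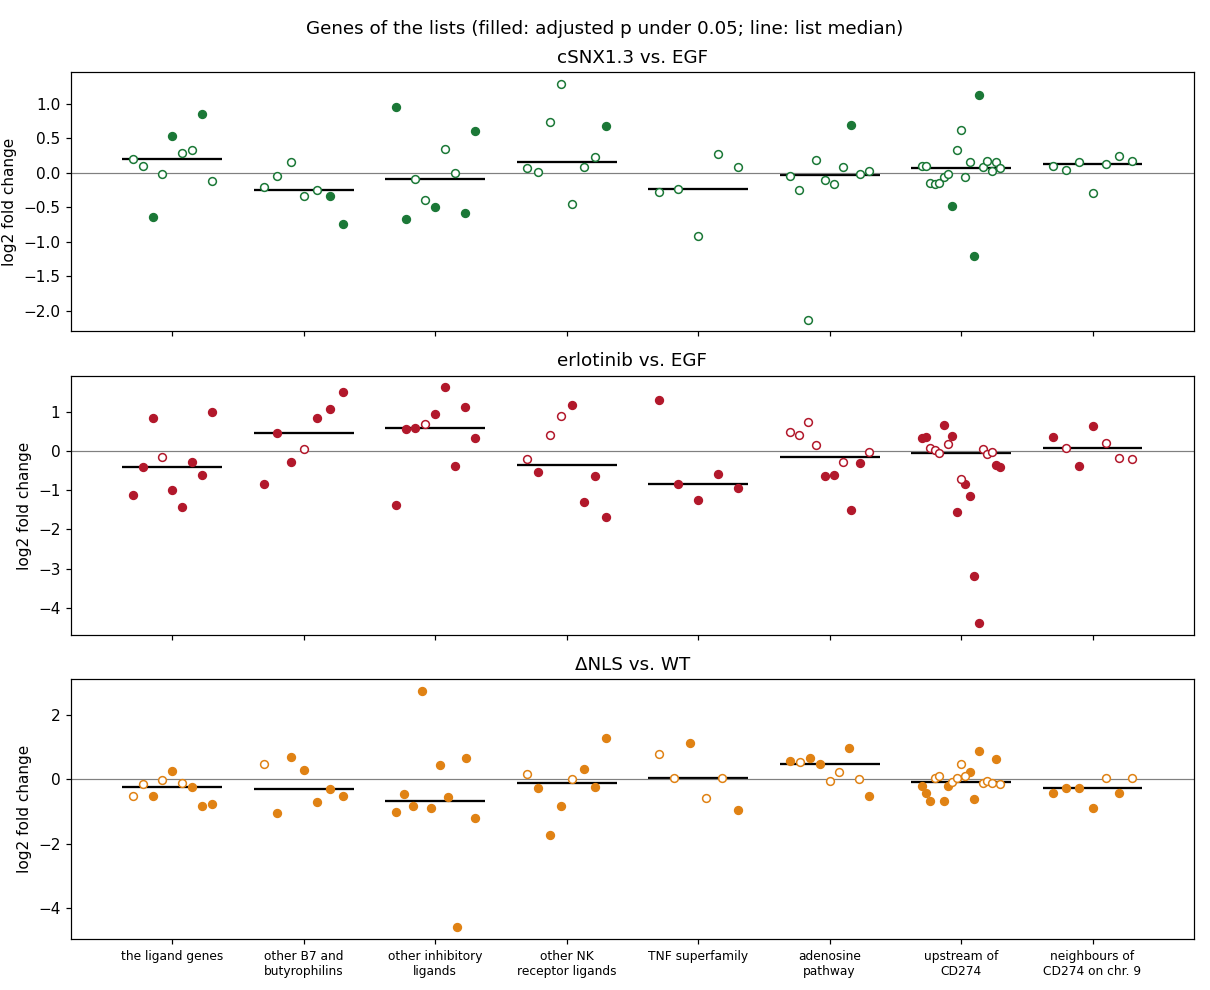
Log2 fold change (y axis) of the tested genes of the ligands and of 7 lists of related genes (x axis) in the 3 comparisons, 1 panel each with its own scale. Points are genes, filled where the adjusted p was under 0.05, and lines are list medians. The ligand genes lie within the range of the related lists, and FOSL1 with erlotinib (-4.41) and IDO1 in ΔNLS (-4.60) are the lowest points.

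The genes most like CD274, PVR and NT5E across the 15 libraries were found by Pearson's r of log2 CPM among 12017 protein-coding genes, those averaging 1 CPM or more. The points share the same 5 groups, so these values describe the libraries only. For PVR they were DPP9, PDCD11 and SLC6A6, each with r = 0.99. SLC6A6, a taurine transporter, had 30.4 ± 2.65 CPM with EGF, 41.9 ± 3.998 CPM with cSNX1.3 and 11.03 ± 0.452 CPM with erlotinib. In the lines it had 15.2 ± 2.46 CPM in WT and 16.8 ± 0.638 CPM in ΔNLS. For NT5E they were CNN3, HSPA5 and SSR3, each with r = 0.98. HSPA5, the chaperone of the endoplasmic reticulum, had 407 ± 60.5 CPM with EGF, 626 ± 116 CPM with cSNX1.3, 331 ± 6.39 CPM with erlotinib, 304 ± 19.9 CPM in WT and 186 ± 17.6 CPM in ΔNLS. For CD274 they were NPBWR1 (r = 0.94), IGSF3 (0.92) and S100A2 (0.91). By Spearman's rho, 0 of the 3 genes were the same for PVR, 2 for NT5E and 1 for CD274.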

How the data were processed

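RNA of MDA-MB-468 cells was measured in 15 libraries, and groups were taken from the sample labels. The authors trimmed the reads with TrimGalore, aligned them to GRCh38 with STAR and counted read pairs per gene with featureCounts, not strand specific. The deposited values are raw counts for 61552 Ensembl genes, with no normalization. The annotation release is not given in the sources used here. GENCODE 44 gave names, positions and exon lengths to 61399 of the IDs, and 153 had no match. Every replicate pair differed beyond sampling noise (chi-square per degree of freedom 2.69 to 24.5).

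The counts were fitted in R 4.3.3 with edgeR 4.0.16 (TMM, filterByExpr by group, robust quasi-likelihood). The 9 drug libraries formed one fit, the 6 line libraries another, and interactions used all 15. Adjustment followed Benjamini and Hochberg over all genes tested, with a threshold of 0.05. CPM use TMM factors of all 15 libraries without a filter, and log2 CPM a prior count of 2. SDs are over replicates. SEs were derived from the test, as the absolute log2 fold change divided by the square root of its F statistic. Tested on simulated data of erlotinib vs. EGF with 15434 genes, 47 of 67 changes of 1.5-fold and 64 of 67 of 2-fold were called, and 9 of 186 calls were false. For the lines, with 15565 genes, 58 of 67 and 66 of 67 were called, and 18 of 208 calls were false. Only a small part of the genes was changed, all above a minimum mean count that CD274 does not reach. These rates therefore do not cover CD274, nor comparisons in which as many genes change as in the data.

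The genes and lists were chosen with earlier results of these data known. Named are the 10 ligand genes in every comparison, EGFR, the ERK output genes as a check of the drugs, of each list up to 3 called genes with the largest absolute log2 fold change in a comparison, and the 3 genes most like CD274, PVR and NT5E. Not every gene that the rule allows is named, and 1 item is not reported here. Alternatives were DESeq2's size factors, DESeq2 1.42.0 as the test, no filter or at least 10 counts in every library, other sets of libraries, leaving out each library, a stricter adjusted p (0.01) and the replicate number as a block. Promoters came from RefSeq (GRCh38.p14).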

Additional observations from a re-analysis of the deposited data

Results flagged for a closer look

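For 3 of the 9 ligand genes tested, the change in ΔNLS vs. WT differed from the change in cSNX1.3 vs. EGF by the interaction test over all 15 libraries (edgeR's quasi-likelihood test, Benjamini-Hochberg adjusted over 16524 genes), where 23.1% of all genes tested differed. The difference in log2 fold change, ΔNLS minus cSNX1.3, was -1.67 for NT5E (adjusted p = 4.33e-08), which fell in ΔNLS (-0.81) and rose with cSNX1.3 (0.86). It was -0.56 for CD47 (adjusted p = 0.00234), which fell in ΔNLS (-0.24) and had 0.32 with cSNX1.3 (adjusted p = 0.0651). It was -0.64 for TNFRSF14 (adjusted p = 0.0446), which fell in ΔNLS (-0.76) and had -0.12 with cSNX1.3 (adjusted p = 0.786), and this difference was past the threshold neither in the fit with no filter on low counts (adjusted p = 0.0563) nor in 10 of 12 fits lacking 1 library each, among them -0.51 (adjusted p = 0.135) without EGF replicate 3. EGFR itself stood at 1346 CPM in WT, 1722 CPM in ΔNLS and 4749.6 CPM with EGF, and the part of that in these differences was not tested.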

How the results depend on the processing

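Of 760 fits of a gene under an alternative, 713 kept the direction and the side of the threshold, 24 lost and 7 gained a call, and 16 changed sign. The number of ligand genes called in ΔNLS vs. WT was 5 in the main analysis and 3 at an adjusted p under 0.01, where PVR and CD47 no longer passed. At that threshold CD274 and CD47 no longer passed in erlotinib vs. EGF (edgeR's adjusted p = 0.0240 and 0.0382). TNFRSF14 no longer passed for the ΔNLS against the cSNX1.3 effect (edgeR's adjusted p = 0.0446). With 1 library left out, 3 to 4 were called in cSNX1.3 vs. EGF, 6 to 8 in erlotinib vs. EGF, 4 to 5 in ΔNLS vs. WT, 8 in cSNX1.3 vs. erlotinib, 2 to 3 for the ΔNLS against the cSNX1.3 effect and 4 to 5 for the ΔNLS against the erlotinib effect. Signs changed only for genes that were not called in the comparison concerned, and only with 1 library left out. In cSNX1.3 vs. EGF these were CD274 (from -0.018 without EGF replicate 3 to 0.33), NECTIN2 (from -0.066 to 0.028, above 0 without cSNX1.3 replicate 3 or EGF replicate 2) and TNFRSF14 (from -0.23 to 0.11 without EGF replicate 2). In ΔNLS vs. WT they were NECTIN2 (from -0.068 to 0.052, above 0 without ΔNLS replicate 2 or WT replicate 2) and NCR3LG1 (from -0.40 to 0.12 without WT replicate 3). For the ΔNLS against the cSNX1.3 effect NECTIN2 ranged from -0.051 to 0.066, and for the ΔNLS against the erlotinib effect CD47 ranged from -0.025 to 0.091.

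Same-numbered replicates did not all deviate together (r from -0.23 to 0.28 over 12 pairs of libraries), so the numbers were not taken as pairs. With the replicate number as a block, 3, 8, 5, 8, 3 and 5 of the 9 genes were called in the 6 comparisons in the order above. The fifth in the last was CD276 (0.28, adjusted p = 0.0421), which DESeq2 also called (0.27, 0.0440). Over all genes, the 956 calls of cSNX1.3 vs. EGF became 1444 in a fit of all 15 libraries, 470 at an adjusted p under 0.01, and 526 (without cSNX1.3 replicate 2) to 892 with 1 library left out. All 50 levels moved by less than 1 SD with DESeq2's size factors. Depth limits CD274, with 7 to 46 counts per library, and PDCD1LG2, with 0 to 3.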
